A study of Rattus norvegicus with 6 samples.

Results

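The heat shock and chaperone network described here comprises 35 rat genes, taken from the deposited count table by gene symbol: 2 heat shock transcription factors, 29 genes for cytosolic chaperones and co-chaperones, and 4 genes for mitochondrial chaperones. All 35 had a row among the 21857 rows of the table. Of these, 33 passed the filter on low counts and were tested among 12298 genes. The 2 that did not were Hspa1a, with 2 counts in vehicle replicate 3, 1 count in BCAA replicate 1 and none elsewhere, and Hsp90aa1, which is listed at 0 in all 6 libraries.

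RNA was sequenced from adipose-derived mesenchymal stem cells of Sprague Dawley rats, stromal cells cultured from fat. All cells were grown in a custom high-glucose medium that lacked leucine, isoleucine and valine, the branched chain amino acids (BCAA), with 10% fetal bovine serum and antibiotics, and all received 100 µM hydrogen peroxide, an oxidant. The vehicle group (3 libraries) received vehicle for 12 h and the BCAA group (3 libraries) received 3.432 mM BCAA for 12 h. The labels do not give the vehicle or the proportions of the 3 amino acids. They name no separate animals or cultures for the replicates, and p-values here measure the spread of these samples only, part of which may be technical. No library without hydrogen peroxide was analysed here.

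Chaperones bind unfolded protein chains and help them fold, and heat shock factors switch on many of their genes when unfolded protein builds up in the cytosol. HSP70 proteins work in cycles with HSP40 proteins, which deliver clients, and with HSP110 proteins, which exchange their nucleotide. HSP90 and its co-chaperones finish the folding of kinases and receptors, small HSPs hold denatured proteins, and the ring-shaped chaperonins fold clients inside a chamber. The cytosolic chaperonin is TRiC and the mitochondrial one is HSP60 (Hspd1) with its lid HSP10 (Hspe1). Hydrogen peroxide oxidises proteins and is a known trigger of the heat shock response, and here it was present in both groups.

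Library totals ran from 12725344 to 15739731 counts, and the 35 genes held between 0.839% and 0.892% of the counts of each library. Vehicle replicate 1 differed from the other vehicle libraries. Mitochondrially encoded genes took 6.58% of its counts against 4.92% and 4.91% in vehicle replicates 2 and 3. The BCAA libraries were at 5.60% to 6.24%. Vehicle replicate 1 gave the highest of the 3 vehicle values for 19 of the 33 tested chaperone genes. Without it 500 of all genes were called in place of 28. Calls of chaperone genes that turn on it are given both ways. All 9 mesenchymal stromal markers looked at were detected in every library, the lowest being Eng at 182 counts per 1000000 (CPM) with vehicle. On the log2 scale 4 of the 9 lay above 0 with BCAA and 5 below, with none called. Cd44 was higher in every BCAA library (0.11) and Vim lower (-0.26). Vim passed with DESeq2 (adjusted p = 0.022, where 0.585% of all genes were called lower). Without vehicle replicate 1 (2.2% of all genes lower), edgeR called Vim (adjusted p = 0.013) and Col1a1 (0.0058) lower. Col1a1 then stood at -0.29, against -0.11 with all libraries. Of the markers in the table, 4 of the 5 endothelial and 4 of the 5 adipocyte ones stayed under 1 CPM in every library. The 8 macrophage and leukocyte markers in the table summed to 887 to 1053 CPM with vehicle and 819 to 885 CPM with BCAA. Lyz2 makes up most of that sum (714 and 622 CPM on average), while 5 of the 8 lay above 0 and 3 below, with a median log2 fold change of 0.06 and none called. Their part in the results was not tested.

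With BCAA, none of the 33 tested chaperone genes passed the threshold over all genes (edgeR, adjusted p under 0.05), where 0.228% of all genes tested passed. The changes were small, at most 1.37-fold, and they pointed both ways, also within single families of the network. Genes for the inducible HSP70 (Hspa1b), for the HSP110 proteins Hsph1 and Hspa4l, for the small HSPs Hspb1 and Hspb8 and for the HSP40 protein Dnajb1 were higher in every BCAA library than in any vehicle library, by 1.11-fold to 1.28-fold. The small HSP gene Cryab and the HSP40 gene Dnajb4 pointed down, at -0.28 and -0.15 on the log2 scale. The mitochondrial HSP10 gene Hspe1 was lower in every BCAA library, by 1.37-fold, and its partner gene Hspd1 overlapped between the groups. All 7 TRiC subunit genes had fold changes slightly below 0 on the log2 scale.

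At an unadjusted p under 0.05 there were 6 members higher, which is 18.2% of the 33, against 5.95% of all genes, and 2 lower, which is 6.06%, against 5.84% of all genes. The groups did not overlap for 7 members on the higher side (21.2%; 9.29% of all genes) and for 5 on the lower side (15.2%; 8.76% of all genes). The median log2 fold change of the tested members was 0.04, beside 0.0035 over all genes, with 20 members above 0 and 13 below. The 95% interval of the fold change lay within 1.2-fold either way for 16 of the 33 members and within 1.5-fold for 31, each interval taken by itself. These shares describe a list and do not test it.

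**Figure D1:**
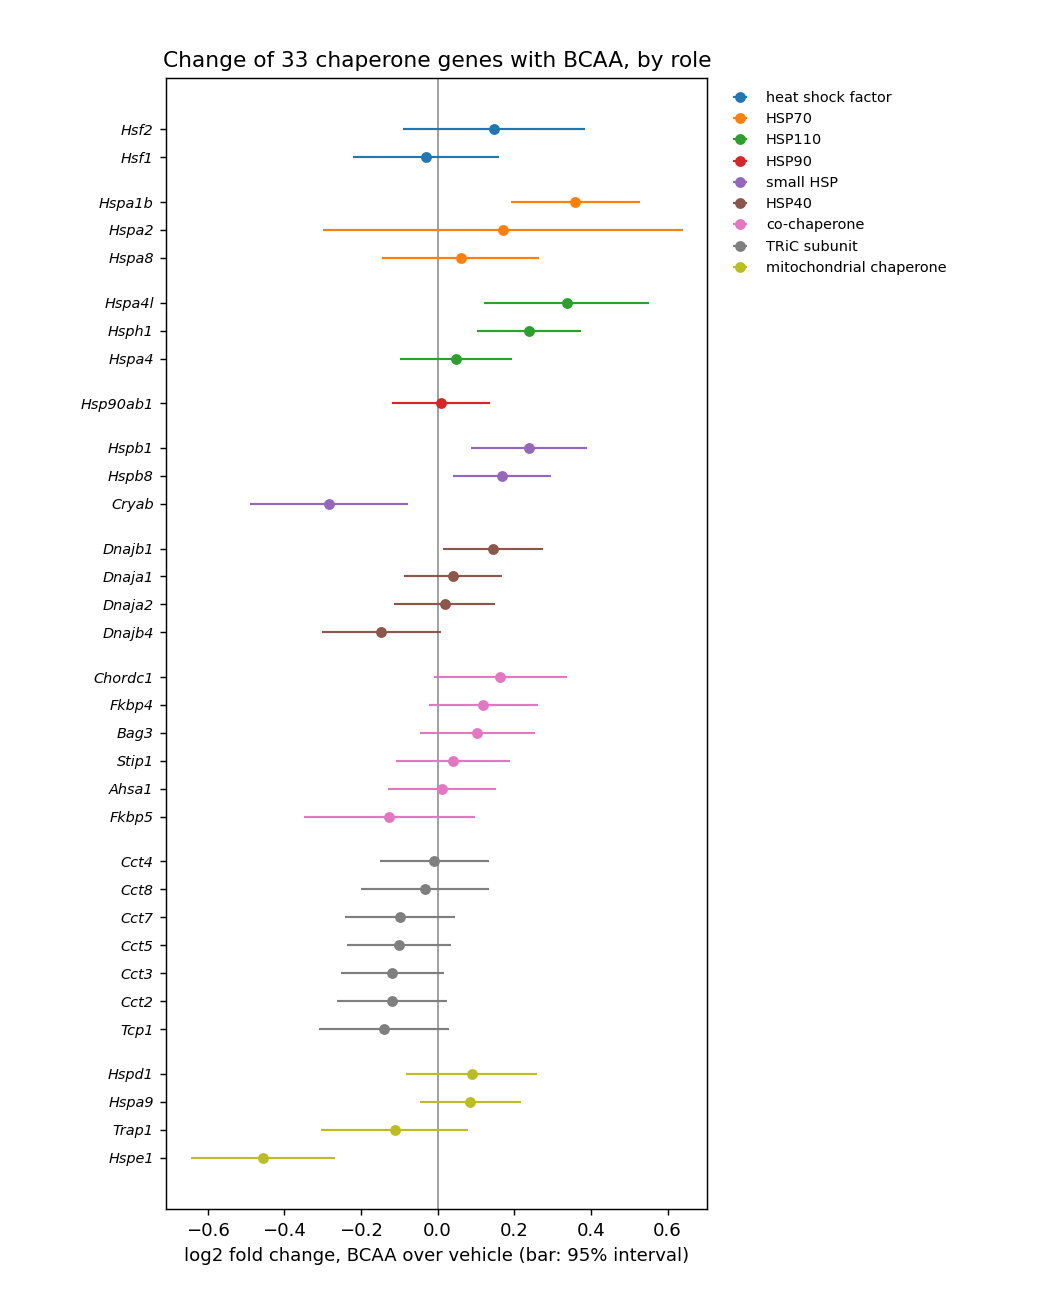
Log2 fold change of each of the 33 tested chaperone genes, BCAA over vehicle (x axis), by gene and grouped by role (y axis, colours); points are edgeR estimates from 3 libraries per group and bars their 95% intervals. HSP110 genes lie at 0.05 to 0.34, TRiC subunits between -0.14 and -0.01, and Hspe1 lies lowest at -0.46.

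In what follows, 3 values in a row are those of replicates 1, 2 and 3 of a group, in that order. Hsf1, the main driver of the heat shock response, was at 46.0, 54.8 and 48.1 CPM in the vehicle libraries against 46.3, 51.6 and 48.1 CPM in the BCAA libraries. The groups overlapped fully, with a log2 fold change of -0.03 (SE 0.09, edgeR adjusted p = 0.93) and a 95% interval from -0.22 to 0.16. Hsf2, a factor that can pair with Hsf1, had 0.15 (SE 0.11) as log2 fold change, and vehicle replicate 1 (36.8 CPM) lay as high as the highest BCAA library (36.9 CPM). Without that vehicle library Hsf2 stood at 0.28 (edgeR adjusted p = 0.10). Hsf1 is controlled largely at the protein level, so its mRNA level does not report its activity.

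Hspa1b encodes the stress-inducible cytosolic HSP70, the classic product of the heat shock response. Its level was 57.2, 63.9 and 66.8 CPM in the vehicle libraries against 80.0, 82.7 and 78.3 CPM in the BCAA libraries. Every BCAA library was above every vehicle library, and the gap between the groups was larger than the spread within either. The log2 fold change was 0.36 with an SE of 0.08, which is 1.28-fold, and edgeR's adjusted p was 0.071. It passed with DESeq2 (adjusted p = 0.017, where 0.447% of all genes were called higher), when genes with low counts were kept (0.019; 0.344%) and when vehicle replicate 1 was left out (0.014; 1.86%), and its adjusted p reached 0.35 over the alternatives. Hspa1a, its near-identical neighbour, held almost no counts, and reads of the pair cannot be told apart with certainty.

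Neither of the other cytosolic HSP70 genes tested had an unadjusted p under 0.05. Hspa8, the constitutive cytosolic HSP70, had a log2 fold change of 0.06 (SE 0.09), with 36.9 to 44.0 CPM with vehicle and 40.7 to 46.8 CPM with BCAA. Hspa2, best known from the testis, was the lowest of the tested members at 4.26 CPM with vehicle, and its interval from -0.30 to 0.64 leaves its direction undetermined. RefSeq names 33 pseudogenes of Hspa8 in the assembly GRCr8, and none of those names has a row in the count table, which used the build rn6. Rows of the same pseudogenes under other names were not searched for. How reads that fit several places were counted is not given in the sources used here, so the counts of Hspa8 are uncertain. The same holds for Hsp90ab1 with 23 named pseudogenes, Hspd1 with 20 and Hsp90aa1 with 16, while Hspe1 has 1.

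The HSP110 genes encode large relatives of HSP70 that reload it with ATP and pull aggregates apart. Hsph1, the heat-inducible one, was at 413, 366 and 387 CPM in the vehicle libraries against 463, 461 and 451 CPM in the BCAA libraries. All BCAA libraries lay above all vehicle libraries and were close to each other. The log2 fold change was 0.24 (SE 0.06), 1.18-fold, with an edgeR adjusted p of 0.14. Hspa4l was at 31.7, 25.1 and 29.6 CPM with vehicle and at 37.4, 36.2 and 35.4 CPM with BCAA. Here too the groups were apart, with a log2 fold change of 0.34 (SE 0.10), 1.26-fold, and an adjusted p of 0.18. Hspa4, the constitutive member, overlapped between groups at 0.05 (SE 0.07) on the log2 scale. When vehicle replicate 1 was left out, 1.86% of all genes were called higher. Both Hsph1 and Hspa4l then passed, at edgeR adjusted p of 0.0023 and 0.015.

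Small HSPs form large assemblies that keep denatured proteins soluble. Hspb1 (HSP27), which also binds the actin cytoskeleton, was at 295, 302 and 306 CPM in the vehicle libraries against 320, 371 and 375 CPM in the BCAA libraries. BCAA replicate 1 lay just above the vehicle range and the other 2 well above it, for a log2 fold change of 0.24 (SE 0.07), 1.18-fold, and an edgeR adjusted p of 0.18. Hspb8, which works with Bag3 to send misfolded proteins to autophagy, was at 215, 224 and 217 CPM with vehicle, and the BCAA libraries were at 245, 246 and 247 CPM, close to each other and above all vehicle libraries. The log2 fold change was 0.17 (SE 0.06, edgeR adjusted p = 0.29).

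Cryab, alpha B-crystallin, is the small HSP that is abundant in muscle and lens, and it pointed the other way. It was at 232, 192 and 175 CPM in the vehicle libraries against 154, 158 and 181 CPM in the BCAA libraries. BCAA replicate 3 lay above vehicle replicate 3, so the groups overlapped, and the log2 fold change of -0.28 (SE 0.10, edgeR adjusted p = 0.27) was -0.16 without vehicle replicate 1, the highest library. The muscle-rich small HSP genes Hspb2, Hspb6 and Hspb7, which are outside the 35, also had values below 0 (-0.48, -0.34 and -0.37) but were near the detection limit, at 1.06, 4.12 and 3.96 CPM with vehicle. Of 7 markers of smooth muscle cells and pericytes, 6 were tested, and all 6 had log2 fold changes below 0 in the same libraries. Of these, 2 were called lower, Acta2 and Tagln, against 0.171% of all genes, and none higher. Cnn1 was called lower with DESeq2 (adjusted p = 0.014, where 0.585% of all genes were called lower). In edgeR it was called lower without vehicle replicate 1 (0.018, against 2.2% of all genes). Cspg4 overlapped between the groups (-0.07, SE 0.17). The summed level of the 7 was 887 to 953 CPM with vehicle and 610 to 636 CPM with BCAA, with Rgs5 near 0. Tagln makes up most of that sum (794 and 519 CPM on average). The part of these markers in the Cryab result was not tested. In bulk RNA, fewer cells of a type and less RNA per cell cannot be told apart.

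Among the HSP40 genes, Dnajb1, the heat-inducible partner of HSP70, was at 146, 149 and 145 CPM in the vehicle libraries against 163, 162 and 162 CPM in the BCAA libraries. The groups were apart with little spread, yet the log2 fold change was only 0.14 (SE 0.06, 1.11-fold, edgeR adjusted p = 0.37). Dnajb4, another class B member, was at 80.6, 72.8 and 74.7 CPM with vehicle and at 69.0, 68.3 and 68.6 CPM with BCAA. It was thus lower in every BCAA library, at -0.15 (SE 0.07, adjusted p = 0.45). The class A members Dnaja1 and Dnaja2 had log2 fold changes of 0.04 and 0.02, with intervals inside -0.11 to 0.17.

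**Figure D2:**
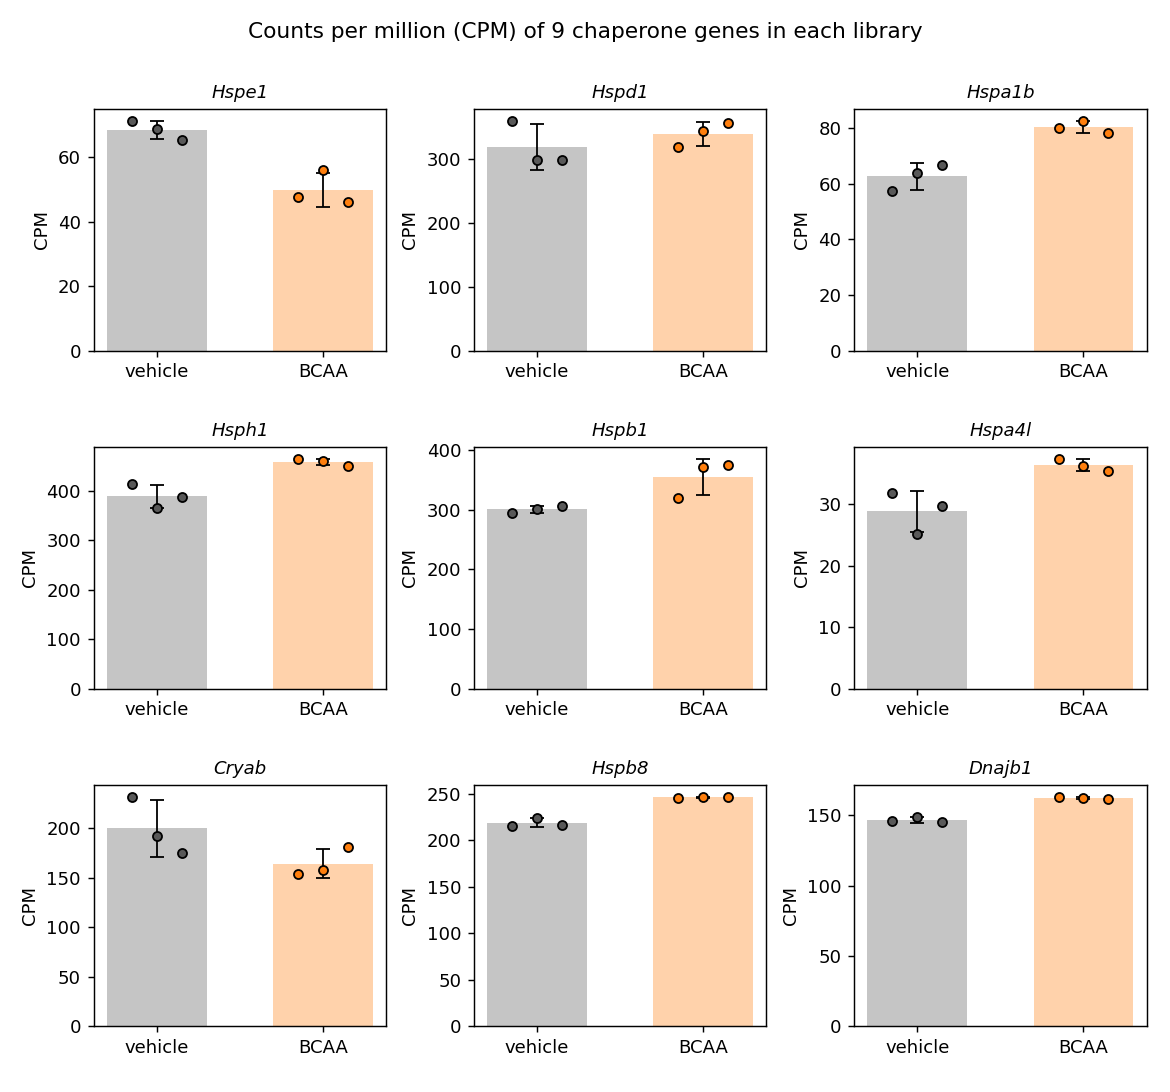
Level in CPM (y axis from 0) of 9 chaperone genes with vehicle and BCAA; points are libraries, bars the group means and whiskers the SD over 3 libraries. Hspe1 is lower in every BCAA library (45.9 to 55.9 against 65.4 to 71.2 CPM), Hspd1 and Cryab overlap between the groups, and the other 6 are higher in every BCAA library.

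Of the 6 co-chaperone genes none had an unadjusted p under 0.05. Fkbp4, an immunophilin that couples HSP90 to steroid receptors, was slightly higher in each BCAA library (132 to 143 against 123 to 130 CPM), with a log2 fold change of 0.12 (SE 0.07, edgeR adjusted p = 0.51). Fkbp5, a glucocorticoid-induced relative, stood at -0.13 (SE 0.10). Chordc1, an HSP90 partner that is itself heat-inducible, depended on vehicle replicate 1: that library, at 145 CPM, lay inside the BCAA range of 137 to 157 CPM, and the other vehicle libraries were at 126 and 122 CPM. Its log2 fold change was 0.16 (SE 0.08, adjusted p = 0.45) with all libraries. Without that one, where 1.86% of all genes were called higher, it was 0.25 (adjusted p = 0.026). Bag3, the HSP70 partner that serves selective autophagy, had 0.10 (SE 0.07), Stip1, which links HSP70 to HSP90, 0.04 (SE 0.07), and Ahsa1, which activates the HSP90 ATPase, 0.01 (SE 0.07).

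HSP90 itself could be read from 1 gene only. Hsp90ab1, the constitutive cytosolic form, lay between 1995 and 2054 CPM with vehicle and between 1966 and 2081 CPM with BCAA. The log2 fold change was 0.0079 with a 95% interval from -0.12 to 0.14. The inducible form Hsp90aa1 is a gene that most cells express, and a value of 0 in every library gives no measure of it here.

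TRiC is a double ring of 8 different subunits that folds actin and tubulin among other clients. All 7 subunit genes in the list had a log2 fold change below 0, from -0.14 (Tcp1) to -0.01 (Cct4), with a median of -0.10 and none at an unadjusted p under 0.05. The eighth subunit gene, Cct6a, was at -0.05 (SE 0.06). The 3 with the smallest p did not overlap between groups, a pattern that 8.76% of all genes showed on the lower side. Cct3 was at 372, 364 and 348 CPM in the vehicle libraries against 317, 343 and 338 CPM in the BCAA libraries (-0.12, SE 0.06, edgeR adjusted p = 0.48). Cct2 was at 335, 303 and 292 CPM with vehicle, and the BCAA libraries were at 277, 292 and 288 CPM (-0.12, SE 0.07, adjusted p = 0.51), so that the nearest libraries were almost equal. Tcp1 was at 113, 95.1 and 96.9 CPM with vehicle and at 94.7, 88.3 and 93.5 CPM with BCAA (-0.14, SE 0.08, adjusted p = 0.51), again with a very small gap. The shared direction was not complete under every setting: Cct4 stood at 0.02 without scaling factors, at 0.0073 without BCAA replicate 1 and at 0.02 without BCAA replicate 2. Without vehicle replicate 1, Cct4 and Cct8 stood at 0.04 and 0.06, and both Tcp1 and Cct2 at -0.06.

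**Figure D3:**
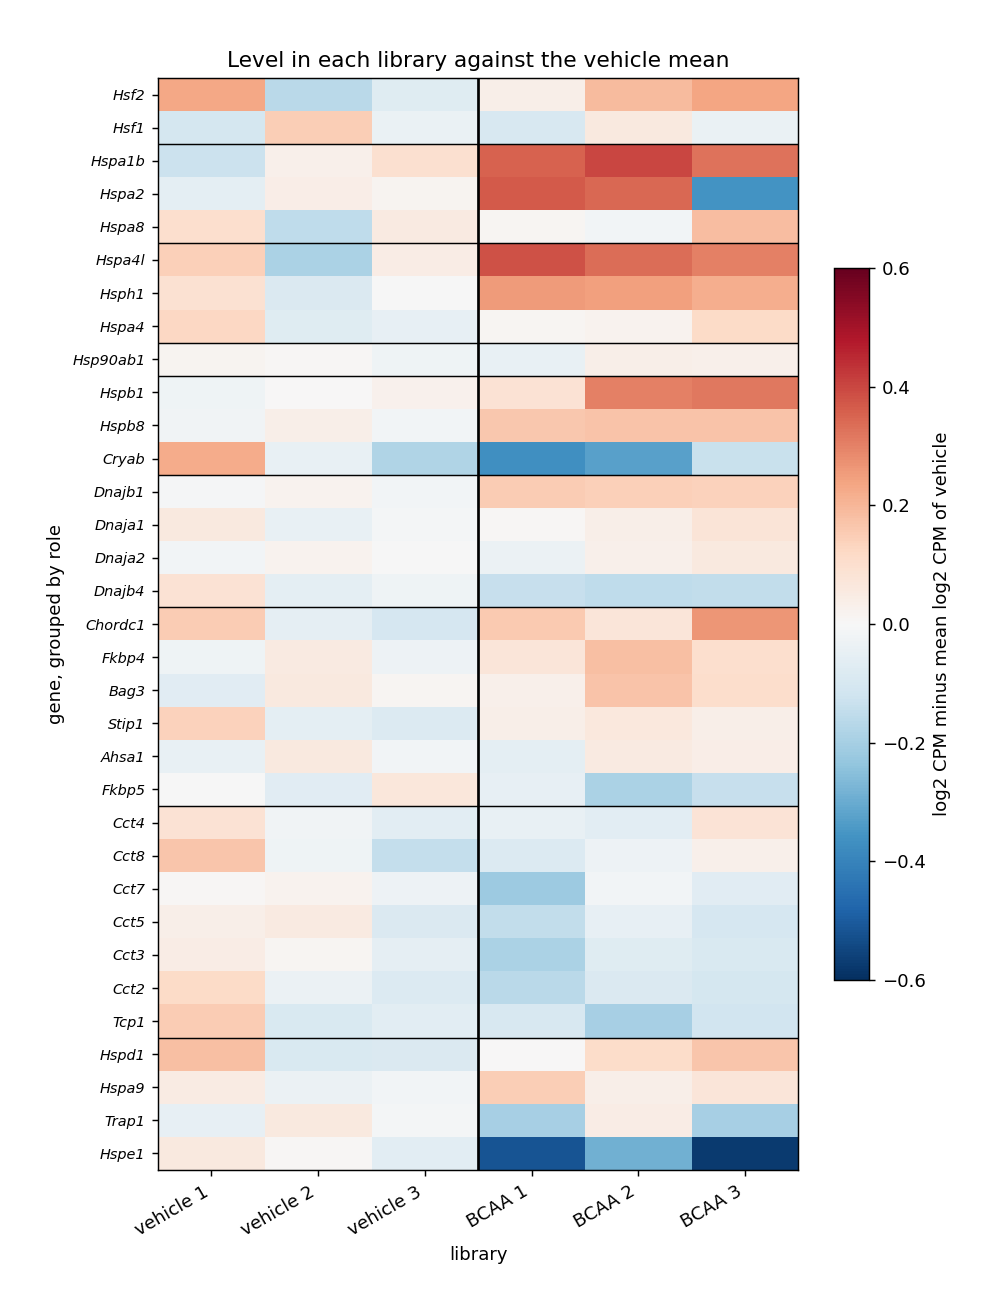
Level of each tested chaperone gene in each library as log2 CPM minus the mean log2 CPM of the 3 vehicle libraries (colour, from -0.6 to 0.6), with genes in rows by role and libraries in columns. Hspa1b, Hspa4l, Hsph1, Hspb8 and Dnajb1 are above the vehicle mean in all BCAA columns, Hspe1 and the TRiC genes Cct3, Cct2 and Tcp1 below it, and vehicle replicate 1 is above that mean for several genes, among them Hsf2, Cryab, Chordc1 and Hspd1.

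Across the 4 mitochondrial chaperone genes the changes were unequal. The median log2 fold change was -0.01, beside 0.04 for the 27 tested cytosolic members, and with 4 genes that median says little. Hspa9 (mortalin, the mitochondrial HSP70, which pulls imported proteins into the matrix) had a log2 fold change of 0.09 (SE 0.06, edgeR adjusted p = 0.63), and Trap1, the mitochondrial HSP90, had -0.11 (SE 0.09, adjusted p = 0.66). Neither separated the groups. The cytosolic members ranged from -0.28 to 0.36 and the mitochondrial ones from -0.46 to 0.09, so the ranges overlapped and the compartments did not divide cleanly.

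Hspe1 encodes HSP10, the lid that closes the HSP60 chamber, and it had the smallest p of the 33 tested members. It was at 71.2, 68.7 and 65.4 CPM in the vehicle libraries against 47.7, 55.9 and 45.9 CPM in the BCAA libraries. All BCAA libraries lay below all vehicle libraries, with a gap larger than the SD of either group. The mean was 68.4 ± 2.88 CPM with vehicle and 49.8 ± 5.35 CPM with BCAA (SD, 3 libraries each), a log2 fold change of -0.46 (SE 0.09), and edgeR's adjusted p was 0.053. The gene passed with DESeq2 (adjusted p = 0.0027, where 0.585% of all genes were called lower), with DESeq2's size factors in edgeR (0.048; 0.203%), when genes with low counts were kept (0.0042; 0.404%) and when vehicle replicate 1 was left out (0.0046; 2.2%). It did not pass without any one of the other 5 libraries, and its adjusted p reached 0.25.

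Hspd1, which encodes the HSP60 ring itself, was at 361, 298 and 299 CPM in the vehicle libraries against 319, 344 and 357 CPM in the BCAA libraries. Vehicle replicate 1 was the highest library of all 6, and the groups overlapped, with a log2 fold change of 0.09 (SE 0.08, edgeR adjusted p = 0.70). Without vehicle replicate 1 the value was 0.19 (adjusted p = 0.055). The ratio of Hspe1 to Hspd1 counts in each library needs no scaling between libraries, although it is not a ratio of molecules because the transcripts differ in length. It was 0.197, 0.230 and 0.219 in the vehicle libraries against 0.149, 0.163 and 0.129 in the BCAA libraries, with no overlap. On the log2 scale it was -2.22 ± 0.113 with vehicle and -2.77 ± 0.171 with BCAA (SD), a difference of -0.56 (exact permutation test, two-sided, p = 0.1, which is the smallest value possible with 3 libraries against 3).

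**Figure D4:**
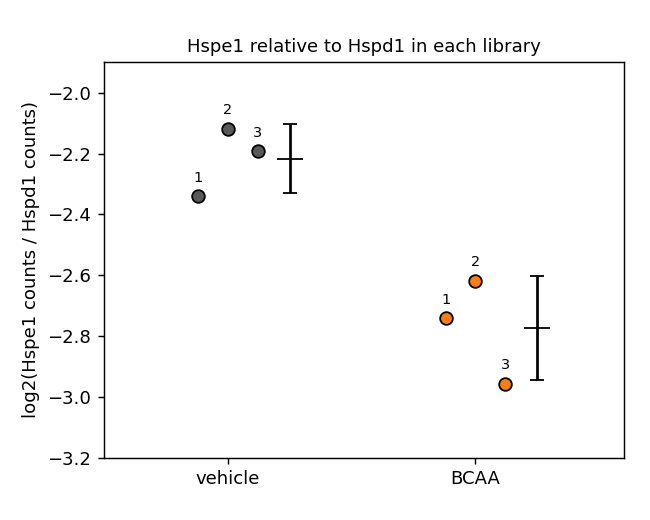
Log2 ratio of Hspe1 counts to Hspd1 counts (y axis, not from 0) in each library; numbers are replicate numbers, and the bars beside the points show the mean and SD of 3 libraries. The vehicle libraries lie between -2.34 and -2.12 and the BCAA libraries between -2.96 and -2.62.

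The pair is shown by sequence because the 2 genes lie head to head and share 1 promoter. In the RefSeq promoter table (build GRCr8) the genes lie on opposite strands of chromosome 9 with 289 bases between their start sites. The 250 bases before the Hspe1 start, chr9:64084077-64084326 on the plus strand, lie wholly between the 2 starts. Capitals mark a block of heat shock element repeats, found by searching both strands for GAANNTTC and TTCNNGAA. Each of these reads the same on both strands and holds 2 inverted repeat units, and overlapping matches were joined.
Hspe1: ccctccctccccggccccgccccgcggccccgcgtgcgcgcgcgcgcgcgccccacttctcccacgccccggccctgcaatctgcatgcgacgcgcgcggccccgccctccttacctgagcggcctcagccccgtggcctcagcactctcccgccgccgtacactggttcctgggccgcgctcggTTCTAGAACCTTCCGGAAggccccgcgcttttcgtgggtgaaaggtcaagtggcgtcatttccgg
The block of 18 bases lies 65 to 48 bases before the Hspe1 start and 225 to 242 bases from the Hspd1 start, so the same element lies in the windows of both genes. A match is a description of letters and not of binding.

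Promoters in the table span 250 bases before to 50 bases after a start, and 29 of the 35 genes have one. The 6 without an entry are Hspa1b, Hsf1, Hsp90aa1, Cryab, Dnaja2 and Dnajb4. A 2-unit match was found in 17 of the 29 (58.6%) against 15.9% of all 33469 promoters of that length, and a 3-unit match (GAANNTTCNNGAA or TTCNNGAANNTTC, each containing both shorter motifs) in 7 (24.1%) against 0.798%. The 7 were Hspa8, Hsph1, Dnaja1, Chordc1, Cct4, Hspd1 and Hspe1, whose log2 fold changes ranged from -0.46 to 0.24. Of the 6 other TRiC genes in the list only Cct5 held a 2-unit match.

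The 150 bases before the start are printed for the other members with an unadjusted p under 0.05 and an entry in the table, all of which were higher with BCAA, to show where their repeats lie. The windows in GRCr8 are chr12:10427218-10427367 (plus strand) for Hsph1, chr12:26432302-26432451 (minus strand) for Hspb1, chr2:125668196-125668345 (plus) for Hspa4l, chr12:45837158-45837307 (plus) for Hspb8 and chr19:41431142-41431291 (minus) for Dnajb1. Each is written 5′ to 3′ on the gene's strand, with matches to either 2-unit motif in capitals.
Hsph1: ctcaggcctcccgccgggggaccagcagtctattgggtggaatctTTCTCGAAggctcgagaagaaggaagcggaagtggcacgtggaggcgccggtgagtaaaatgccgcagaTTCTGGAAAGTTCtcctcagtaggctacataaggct
Hspb1: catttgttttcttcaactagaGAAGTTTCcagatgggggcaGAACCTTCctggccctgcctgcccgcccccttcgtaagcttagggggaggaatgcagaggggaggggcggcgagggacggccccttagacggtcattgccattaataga
Hspa4l: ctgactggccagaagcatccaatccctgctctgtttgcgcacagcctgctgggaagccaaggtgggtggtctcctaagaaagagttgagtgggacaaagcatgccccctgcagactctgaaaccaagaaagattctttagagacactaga
Hspb8: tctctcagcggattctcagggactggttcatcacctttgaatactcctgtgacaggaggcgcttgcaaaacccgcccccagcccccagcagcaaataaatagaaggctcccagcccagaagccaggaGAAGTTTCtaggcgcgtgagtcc
Dnajb1: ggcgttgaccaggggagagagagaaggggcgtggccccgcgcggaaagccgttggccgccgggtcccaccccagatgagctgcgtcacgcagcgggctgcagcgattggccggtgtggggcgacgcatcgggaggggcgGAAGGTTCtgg
Hsph1 has a 3-unit block 36 to 24 bases before its start and a 2-unit match 105 to 98 bases before it. Hspb1 has a pair of 2-unit matches, at 129 to 122 and 109 to 102 bases before the start, Hspb8 has 1 at 23 to 16 and Dnajb1 has 1 at 11 to 4. Dnajb1 has another past its start, from base 18 of the transcript, outside the printed stretch. Hspa4l has none in the stretch printed, and its only match begins at base 39 of the transcript, counted from 1 at the start.

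Other genes of the network, from a list that excludes the 35, lay mostly below 0. Of 43 listed, 40 were tested and none was called in either direction (edgeR, adjusted p under 0.05, against 0.0569% of all genes called higher and 0.171% lower); 11 lay above 0 and 29 below, with a median log2 fold change of -0.08. Without vehicle replicate 1, where 2.2% of all genes were called lower, the prefoldin gene Vbp1 was called lower at -0.28 (adjusted p = 0.033), against -0.17 (adjusted p = 0.54) with all libraries. At an unadjusted p under 0.05 there were 0 higher and 2 lower of the 40 tested, beside 5.95% and 5.84% of all genes. These were Pfdn5 and Bag1. Pfdn5, a subunit of prefoldin, which hands clients to TRiC, was at -0.24 (SE 0.08, edgeR adjusted p = 0.25). Bag1, a nucleotide exchange factor of HSP70, was at -0.16 (SE 0.07, adjusted p = 0.41). Of the 6 prefoldin genes 5 lay below 0. Several signs in the list turned without vehicle replicate 1. Dnajb6, Dnajc2, Bag2, Ppid, Sugt1, Tomm34 and the prefoldin gene Pfdn4 then stood above 0 (0.02 to 0.13). Unc45a and Sgta then stood below 0 (-0.05 and -0.07). The smallest p on the higher side were those of Dnajc5, a synaptic vesicle HSP40, at 0.19 (SE 0.12), and Ptges3, the HSP90 co-chaperone p23, at 0.08 (SE 0.08). Without vehicle replicate 1, Dnajc5 stood at 0.04 (edgeR adjusted p = 0.85) and Ptges3 at 0.18 (adjusted p = 0.071).

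Further genes of mitochondrial folding and protein quality control had a like distribution. Of 19 listed, 18 were tested and none was called (0.0569% of all genes were called higher and 0.171% lower). There were 4 above 0 and 14 below, with a median of -0.10. Without vehicle replicate 1, Timm44 and Clpx stood above 0 (0.05 and 0.08). Yme1l1 is listed at 0 in all libraries. The smallest p were those of Clpp, the matrix protease, whose means were 30.1 and 23.9 CPM with vehicle and with BCAA (-0.33, SE 0.10, edgeR adjusted p = 0.19), and of Dnajc19, a J protein of the import motor, at 18.0 and 13.4 CPM (-0.42, SE 0.14, adjusted p = 0.25). Both had groups that did not overlap. Without vehicle replicate 1, where 2.2% of all genes were called lower, Clpp was called lower (-0.36, edgeR adjusted p = 0.045). Dnajc19 then stood at -0.27 (adjusted p = 0.26). On the higher side were Grpel2, a nucleotide exchange factor of Hspa9, at 0.19 (SE 0.10), and Lonp1, the other main matrix protease, at 0.12 (SE 0.08), neither with groups apart. Spg7, a subunit of the inner membrane m-AAA protease, was higher in every BCAA library, by 0.10 (SE 0.08) on the log2 scale. In the list as a whole the groups were apart for 1 gene higher and 3 lower of the 18 tested, beside 9.29% and 8.76% of all genes.

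The members with the smallest p kept their sign over the processing, while sizes and calls varied. Hspa1b stayed between 0.30 and 0.41, Hsph1 between 0.19 and 0.29, Hspb1 between 0.20 and 0.31, Hspa4l between 0.24 and 0.42, Cryab between -0.37 and -0.16 and Hspe1 between -0.55 and -0.40 over 11 alternatives. Without vehicle replicate 1 there were 5 members called higher (Hsph1, Hspa1b, Hspa4l, Chordc1 and Hspb1), against 1.86% of all genes, and 1 lower (Hspe1), against 2.2%. No member was called without any one of the other 5 libraries.

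**Figure D5:**
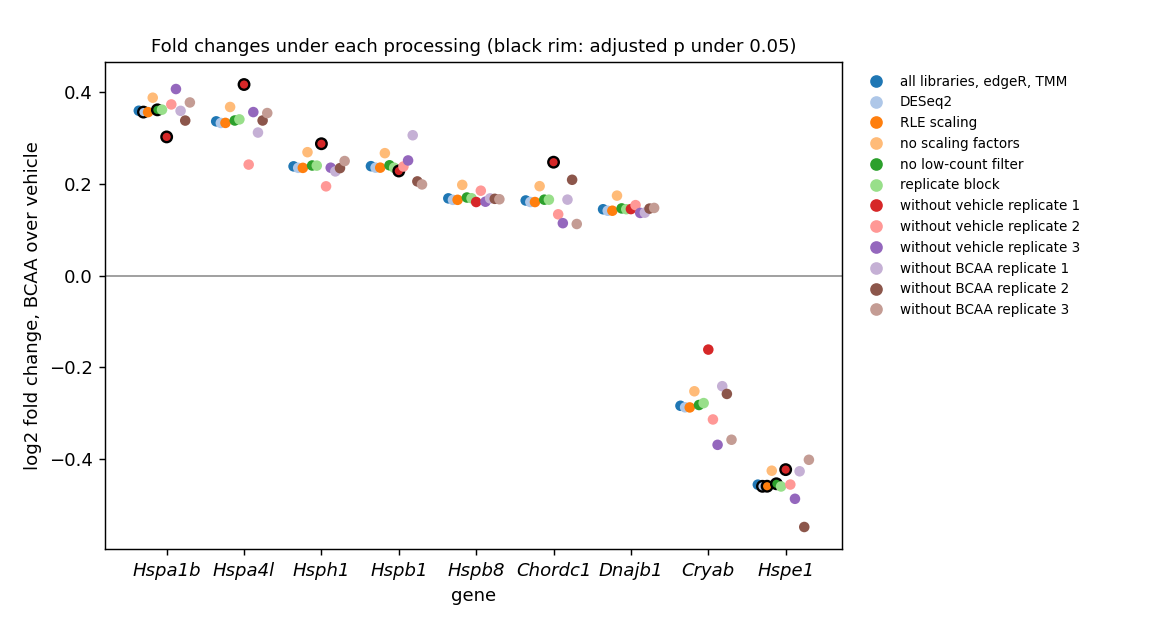
Log2 fold change of 9 chaperone genes, BCAA over vehicle (y axis), under each processing (colours); a black rim marks an adjusted p under 0.05. Each gene keeps its sign in all 12 settings, Hspe1 is called in 4 of them and Hspa1b in 3, and the setting without vehicle replicate 1 gives the most calls.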

How the data were processed

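For 6 libraries (3 with vehicle, 3 with BCAA) the deposited file gives unnormalized, unpooled counts of reads by gene symbol. Per the submitters' processing notes, Trimmomatic, FastQC, STAR and HTSeq were used with the build rn6. Their versions, the annotation, the strand setting and the handling of reads with several places were not given in the sources used here, so reads of overlapping or near-identical genes are uncertain. Of the 21857 rows, 5287 hold no count.

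Groups came from the titles, which the column names match. Counts were tested with edgeR 4.0.16 (R 4.3.3; quasi-likelihood, robust, TMM, filterByExpr with minimum count 10 and minimum total 15), with the group as the only term. P-values were adjusted by Benjamini-Hochberg over 12298 genes and called under 0.05. An SE is the log2 fold change divided by the square root of F, and 95% intervals use the fit's t quantile. CPM use TMM-scaled totals, and log2 CPM a prior count of 2. DESeq2 1.42.0, other scalings, no filter, the replicate number as a term and each library left out were the alternatives. Chi-square per degree of freedom between libraries was 2.70 to 19.1, so none was a copy of another. Fits were tested on simulated data.

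Members and lists were chosen with earlier results of these data known. Values in every library are given for the 6 members with the smallest p in each direction, Hsf1, Hspd1 and Hspe1, and for Chordc1, chosen after its values were seen. Other lists give the 2 genes with the smallest p each way. Hspb2, Hspb6, Hspb7, Cct6a, Vbp1, Spg7, Lyz2, Cnn1, Cd44, Vim and Col1a1 were chosen after their values were seen. Promoters and pseudogene names are RefSeq's (GRCr8).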

Additional observations from a re-analysis of the deposited data

How the results depend on the processing

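All genes called numbered 28, and 127 with DESeq2, 124 without the low-count filter, 6 with the replicate block and between 7 and 500 with 1 library left out, the highest without vehicle replicate 1. Of the chaperone genes none was called higher or lower in the main fit (edgeR, TMM, low-count filter, all libraries). Also with all libraries, 1 was higher and 1 lower with DESeq2 and without the filter (Hspa1b and Hspe1). With DESeq2's size factors in edgeR, 1 was lower (Hspe1). With 1 library left out, 0 to 5 were higher and 0 to 1 lower. The median of the cytosolic members ran from -0.0011 (without BCAA replicate 3) to 0.073 (without vehicle replicate 1). That of the mitochondrial members ran from -0.059 (without BCAA replicate 2) to 0.016 (without scaling factors). The Hspe1 to Hspd1 difference ran from -0.63 to -0.46. Signs turned for 7 members near 0 under these alternatives, and the other 26 tested members kept theirs. Cct4 was at 0.022 without scaling factors. With 1 library left out, Cct4 ran from -0.056 to 0.039, Cct8 from -0.10 to 0.058, Ahsa1 from -0.010 to 0.042, Hsf1 from -0.080 to 0.047, Hspa8 from -0.017 to 0.11, Hsp90ab1 from -0.0066 to 0.031 and Dnaja2 from -0.0011 to 0.042. The cause was not tested.

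Equal replicate numbers did not pair the libraries: deviations from the group means correlated at -0.066, 0.105 and -0.146 for numbers 1 to 3 across genes. Vehicle replicate 1 correlated best with BCAA replicate 3 (0.146) and vehicle replicate 3 with BCAA replicate 1 (0.140). The remaining pairs of unequal number lay between -0.083 and -0.0024. A pairing under other numbers was not tested. The replicate block changed no call among the chaperone genes. With 3 libraries a group, the typical SE of a member was 0.07 on the log2 scale, which limits what could be called.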
